A study of Mus musculus with 2 samples.

Results

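The Bcl2 family decides whether a stressed cell keeps or opens its outer mitochondrial membrane, and 10 of its genes were followed here in mouse tumours. They were chosen by name from the 32285 genes of the tables: 5 survival genes (Bcl2, Bcl2l1, Mcl1, Bcl2a1b and Bcl2a1d), 2 membrane-permeabilising effectors (Bax and Bak1) and 3 BH3-only genes (Bcl2l11, Bbc3 and Pmaip1). UMIs, the molecule counts of droplet sequencing, were found for 8 of the 10 in both libraries, and Bcl2a1d and Bak1 stood at 0 in both.

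Survival proteins of the family hold BAX and BAK1 in check at the mitochondrion, and BH3-only proteins release them by binding the survival proteins or the effectors themselves. Lymphocytes are known to lean on different survival members as they mature, and BIM, the product of Bcl2l11, is known for removing lymphocytes when cytokine support ends. Myeloid cells are known to need MCL1, and A1, the product of the Bcl2a1 genes, is a haematopoietic member induced by NF-kB.

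A pair of single-cell libraries was compared, each from subcutaneous tumours of 4T1, a mouse mammary carcinoma line, in mice whose strain the labels write as C57BL/c. The treated mice received phototherapy mediated by AIE COF, a covalent organic framework material, and the control mice received PBS. Tumours were taken on day 7 after phototherapy. Each group is 1 library, and neither the number of animals behind it nor whether the PBS mice were illuminated is given in the sources used here.

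From 10002 treated and 8962 PBS barcodes, with 115576457 and 145045294 UMIs in total, 8619 and 7864 cells were kept, at medians of 3884 and 6341 UMIs per cell. The libraries shared 39 barcode sequences, and leaving those cells out kept all 13 of the calls described below. Cells were clustered without the family's genes and named from marker genes, so each class name below means cells with those markers. The classes compared, given as treated and PBS cells, were B-like (1200 and 365), naive- or central-memory-like T (963 and 222), CD8 effector-like T (150 and 265), regulatory T-like (123 and 84), NK-like (101 and 92), macrophage-like (1156 and 823), monocyte-like (429 and 268) and a Ptprc-low class (2569 and 3019). The Ptprc-low class joins 4 clusters rich in RNA that nearly lack Ptprc, the CD45 gene. Its 10 epithelial markers summed to 3.54 treated and 3.47 PBS CPM (UMIs scaled to a common class total), so the labelled 4T1 identity rests on no epithelial marker here, and the class is named by its rule.

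Levels are in CPM of the class, or of all kept cells. A member was measured in a class with at least 50 UMIs over both libraries, and a difference was called at 1.5-fold. Since each group is a single library, no test was possible and no difference has a replicate check. Intervals in parentheses are exact 95% intervals. Those of levels and ratios cover the counting error of UMIs only, and those of shares cover only the sampling of cells within 1 library. Cells are not replicates, so every difference is between these libraries.

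Across all kept cells, the survival genes Mcl1 and Bcl2a1b and the BH3-only gene Pmaip1 stood higher in the treated library, and no member stood lower by the same margin. Of the 8 measured members, 3 were called higher, where 8.5% of the 15629 measured genes were, and 0 were called lower, where 4.89% of genes were. The median log2 ratio of treated to PBS was 0.21 over the 8 members and 0.01 over all genes. With counts summed over a whole tumour, more cells of a type and more RNA per cell cannot be told apart.

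Mcl1, which encodes a short-lived survival protein, had 16687 treated and 12308 PBS UMIs, or 163 and 97.1 CPM. Its log2 ratio was 0.74 (0.71 to 0.78). Bcl2a1b, a mouse A1 gene, had 16880 and 11451 UMIs, or 164 and 90.3 CPM, a log2 ratio of 0.86 (0.83 to 0.90). These were the members with the most UMIs, and their counting intervals lay clear of the 1.5-fold mark. Pmaip1, the gene of NOXA, which binds MCL1 and A1, had 2086 and 1591 UMIs, or 20.3 and 12.6 CPM, a log2 ratio of 0.70 (0.60 to 0.79).

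The other 5 measured members stayed within 1.5-fold over all kept cells. Bcl2, the founding survival gene, stood at 30.5 treated and 32.3 PBS CPM, and Bcl2l1, the gene of BCL-XL, at 17.0 and 17.3 CPM. The effector gene Bax stood at 90.1 and 82.3 CPM. Among the BH3-only genes, Bcl2l11 stood at 37.8 and 31.0 CPM, and Bbc3, the gene of the p53 target PUMA, at 13.5 and 12.8 CPM. The interval of the log2 ratio held 0 for Bcl2l1 (-0.12 to 0.07) and Bbc3 (-0.03 to 0.18).

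The cells that supplied these UMIs differed by member. Macrophage-like cells gave 9.97% of all treated UMIs and 5.35% of all PBS UMIs, but 75.0% and 69.5% of Bcl2a1b, 49.2% and 41.3% of Pmaip1, and 44.1% and 26.5% of Mcl1. Ptprc-low cells gave 76.9% and 81.9% of all UMIs, 73.3% and 75.4% of Bbc3, 69.98% and 75.4% of Bax, but 1.73% and 2.10% of Bcl2a1b. Macrophage-like cells were also a larger share of treated cells, 13.4% against 10.5%.

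**Figure D1:**
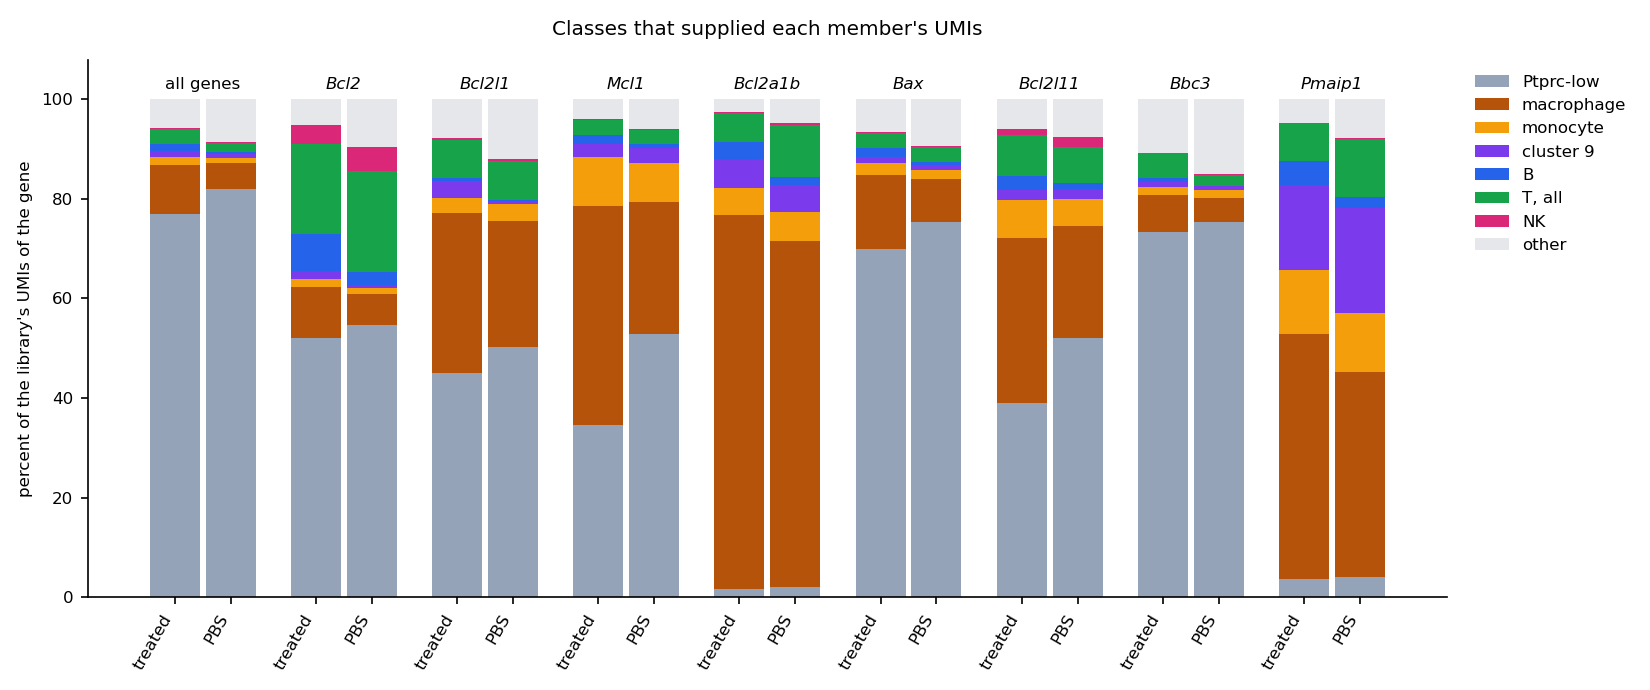
Stacked bars give the percent of each member's UMIs, and of all genes' UMIs, that came from each class in the treated and in the PBS library. Bcl2a1b came mainly from macrophage-like cells (75.0% and 69.5%) and Bax mainly from Ptprc-low cells (69.98% and 75.4%).

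The called whole-tumour differences depended on how the cells were weighted. When each treated cluster was weighted by its PBS share of cells, the log2 ratio of Mcl1 went from 0.74 to 0.42, that of Bcl2a1b from 0.86 to 0.29 and that of Pmaip1 from 0.70 to 0.16, and none of the 3 was then called. With the 8 compared classes weighted equally and all other cells left out, Mcl1 gave 0.33, Bcl2a1b -0.061 and Pmaip1 0.07. The cells left out include a cluster with 3.94% of treated and 13.1% of PBS cells. They also include a cluster with 17.1% of treated and 21.1% of PBS Pmaip1 UMIs. With every cell weighted equally Mcl1 alone was still called, at 0.69, while Bcl2a1b gave 0.46 and Pmaip1 0.23. Thinning each cell to 1000 UMIs gave 0.79 for Mcl1, 0.49 for Bcl2a1b and 0.29 for Pmaip1. Equal cell weight and thinning change the weight of deep cells and do not make the class shares of the libraries equal. The parts of class mix and depth in these calls were not tested.

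**Figure D2:**
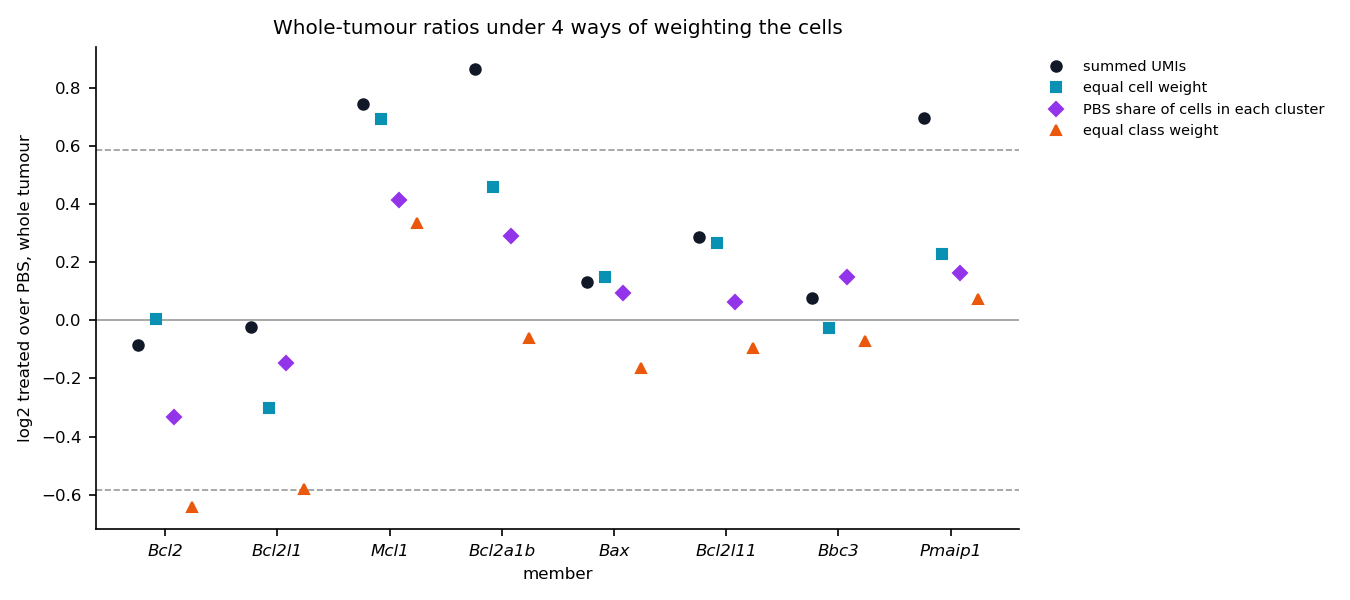
Points give the whole-tumour log2 ratio of treated to PBS for each measured member under 4 weightings. Cells are summed as counted, weighted equally by cell, weighted equally by class, or set to the PBS share of each cluster. The class weighting covers the 8 compared classes and leaves out all other cells. Bcl2a1b ran from 0.86 to -0.061 over these weightings, and Mcl1 stayed above 0 under all 4, from 0.33 to 0.74.

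Inside classes, most member levels lay within 1.5-fold of each other in the libraries. Of 80 possible pairs of a member and a class, 50 were measured, 4 were called higher and 6 lower, and the interval of the ratio held 0 for 31. Over all measured genes the share called ran by class from 3.73% to 9.05% higher and from 4.33% to 9.3% lower. Bcl2 was called lower in CD8 effector-like and in naive-like T cells, Bcl2l1 in regulatory T-like and monocyte-like cells, and Bax and Bcl2l11 in CD8 effector-like cells. The pairs called higher were Bcl2l11 in naive-like T cells, Mcl1 in NK-like cells, and Bcl2a1b and Pmaip1 in Ptprc-low cells.

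**Figure D3:**
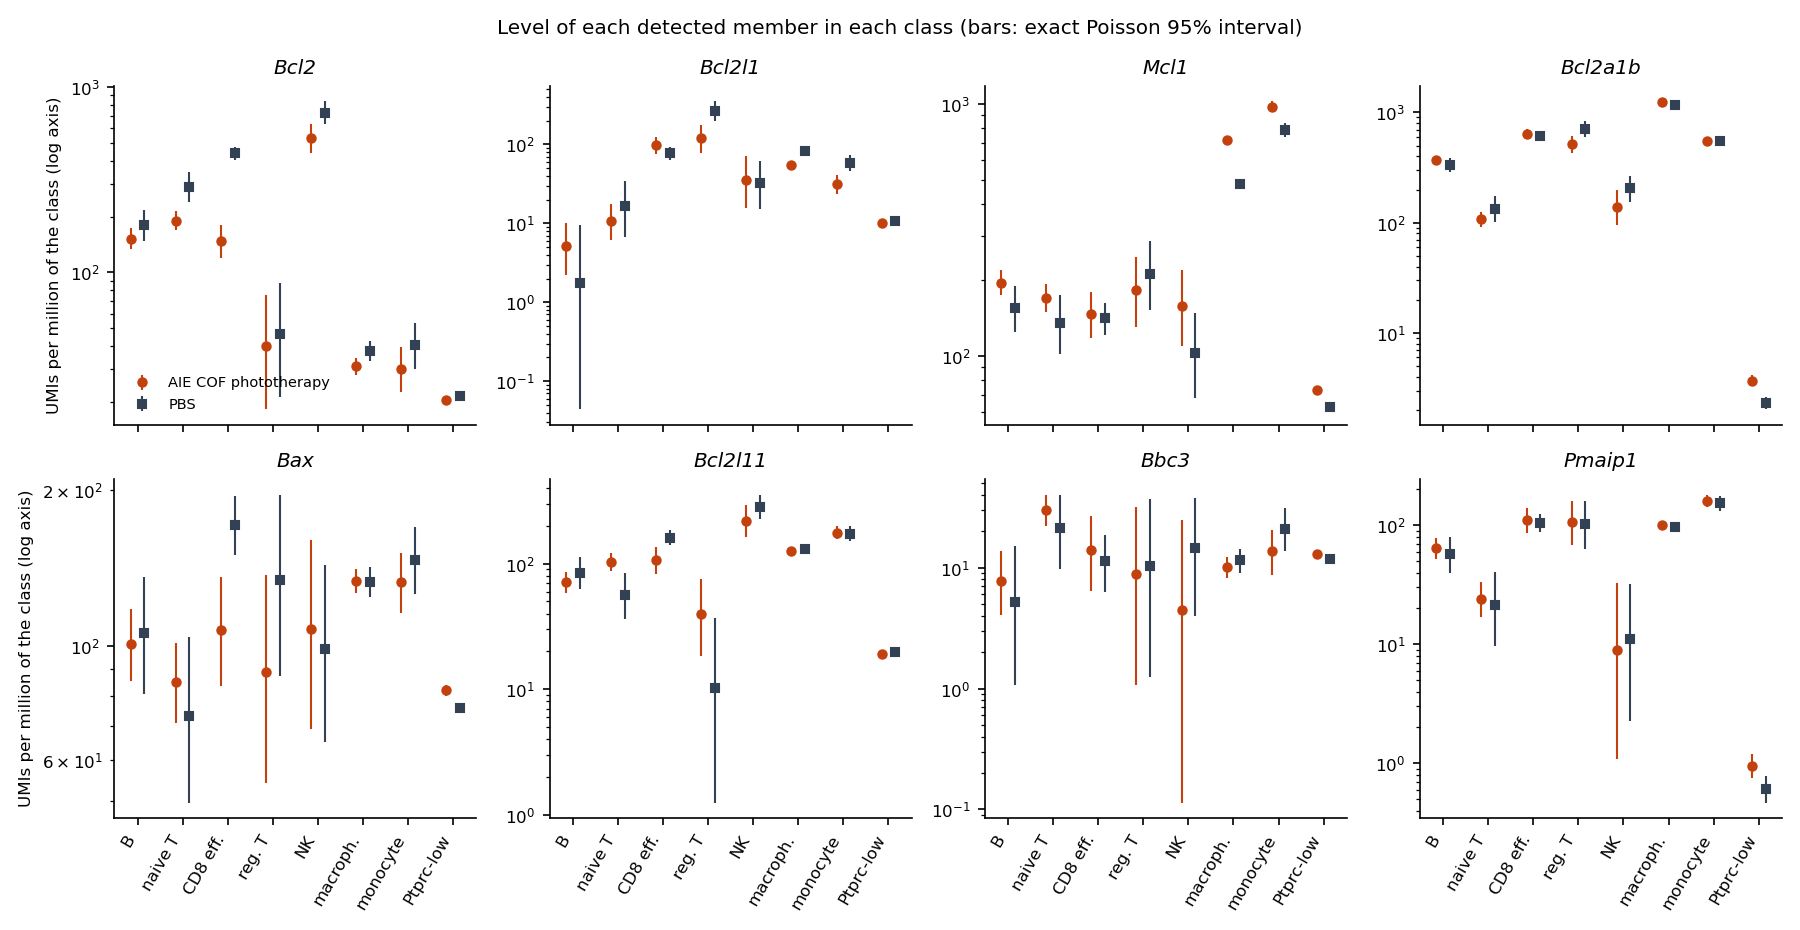
Each panel gives 1 detected member, with its level in CPM on a log axis in each class, in the treated (orange) and PBS (dark) library, and bars for the exact 95% Poisson interval. Bcl2 peaked in NK-like cells (530.2 and 727 CPM), while Bcl2a1b peaked in macrophage-like cells (1237 and 1172 CPM).

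Bcl2 levels were higher in lymphocytes than in myeloid or Ptprc-low cells, apart from regulatory T-like cells. NK-like cells stood highest in both libraries, at 530.2 treated (439 to 635) and 727 PBS CPM (630 to 836). In the PBS library CD8 effector-like T cells came next at 439 CPM, then naive-like T cells at 290.04 and B-like cells at 180.04, each apart from its neighbour by its interval. In the treated library the order was naive-like T (189.9 CPM), B-like (152) and CD8 effector-like T cells (148), and those neighbours' intervals overlapped. Regulatory T-like cells held 39.9 and 46.3 CPM, from 9 UMIs in each library, and macrophage-like, monocyte-like and Ptprc-low cells held between 20.7 and 40.5 CPM. All 8 classes had a lower treated than PBS level of Bcl2, although only 2 passed 1.5-fold. In NK-like cells the 118 treated and 199 PBS UMIs gave a log2 ratio of -0.46 (-0.80 to -0.12).

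CD8 effector-like T cells showed the widest gap in Bcl2 among the measured pairs. The treated cells held 95 UMIs (148 CPM, 119 to 181) and the PBS cells 584 UMIs (439 CPM, 404 to 476), a log2 ratio of -1.57 (-1.90 to -1.26), or 0.336 of the PBS level (0.268 to 0.418). At 1000 UMIs per cell, 13.2% of 144 treated (8.13 to 19.8%) and 35.4% of 254 PBS cells (29.6 to 41.7%) had a Bcl2 UMI. Thinning left out 6 treated and 11 PBS cells. Without thinning the shares were 34.7% and 66.8%, at median depths of 3562.5 and 4144 UMIs. Macrophage-like cells, which hold little Bcl2, had a UMI in 2.87% and 3.16% of thinned cells at unthinned medians of 7939 and 7234 UMIs. The CD8 shares stood above that level in both libraries.

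**Figure D4:**
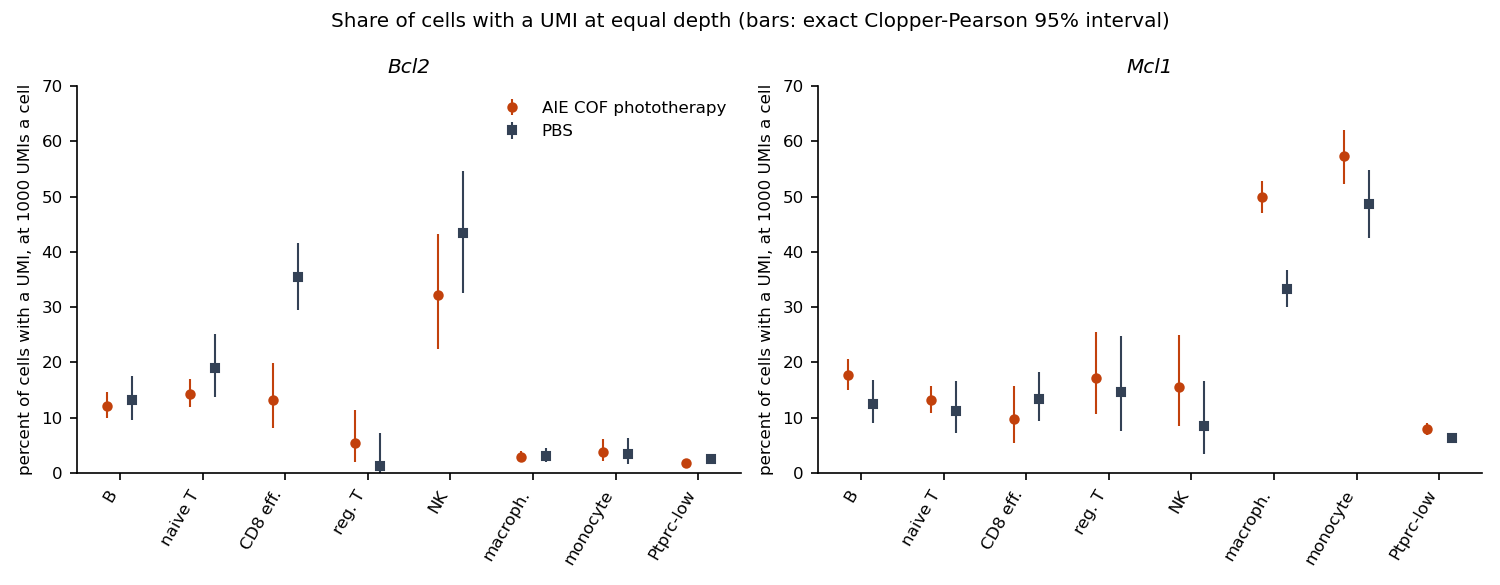
Points give the percent of cells in each class with a UMI of Bcl2 (left) or Mcl1 (right) after thinning every cell to 1000 UMIs, in the treated (orange) and PBS (dark) library, with exact 95% Clopper-Pearson intervals. The intervals of the libraries lie apart for Bcl2 in CD8 effector-like T cells (13.2% and 35.4%) and for Mcl1 in macrophage-like cells (49.9% and 33.3%). They cover the sampling of cells within a library and no variation between tumours.

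The lower Bcl2 level appeared in both sub-clusters that make up the CD8 effector-like class, and these stood in unlike proportions, with 91 treated and 205 PBS cells in the first and 59 and 60 in the second. In the sub-cluster led by Ifitm1, Pdcd1 and Havcr2, genes that include inhibitory receptors of stimulated T cells, the treated cells held 52 UMIs (172 CPM) and the PBS cells 429 (544 CPM), a log2 ratio of -1.66 (-2.10 to -1.24). In the cycling sub-cluster the counts were 43 and 155 UMIs, or 126 and 286 CPM, a log2 ratio of -1.19 (-1.71 to -0.69). A further T sub-cluster led by Ly6c2 and Klra7, outside this class, stood at 379.7 and 528 CPM, a log2 ratio of -0.47 (-0.87 to -0.08).

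Bax and Bcl2l11 were also called lower in CD8 effector-like cells, so that 3 of 7 measured members were lower there, where 8.46% of 5023 genes were, and 0 were higher, where 7.11% were. The members' median was 0.06 and that of all genes 0.01. Bax had 69 treated and 228 PBS UMIs, or 107 and 171 CPM, a log2 ratio of -0.68 (-1.09 to -0.28). Bcl2l11 had 69 and 215 UMIs, or 107 and 162 CPM, a log2 ratio of -0.59 (-1.01 to -0.19).

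These Bax and Bcl2l11 calls came from the cycling sub-cluster, where the log2 ratios were -1.08 for Bax and -1.26 for Bcl2l11. In the sub-cluster with Pdcd1 and Havcr2 they were -0.32 (-0.90 to 0.22) and -0.09 (-0.61 to 0.41). Without the cycling cells only Bcl2 of the 3 was called. The Bax call was also lost with every cell weighted equally (-0.50), and the Bcl2l11 call with the stricter cell filter (-0.53) and with doublets left in (-0.57). The other survival genes of the class differed little: Bcl2a1b stood at 644 and 614 CPM, Mcl1 at 146 and 141 CPM and Bcl2l1 at 97.9 and 77.5 CPM. The BH3-only gene Pmaip1 stood at 110.4 and 105 CPM.

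Taken over all T-like cells together, 1 of 8 measured members was called higher, where 7.92% of 7521 genes were, and 4 lower, where 11.9% were, with a median of -0.61 against -0.06 for all genes. Bcl2 (-0.99), Bcl2l1 (-0.79), Bcl2a1b (-0.65) and Pmaip1 (-0.64) were the lower members and Bbc3 (0.59) the higher. The mix of T sub-clusters differed between the libraries. Naive-like cells were far more numerous in the treated one (963 against 222) and CD8 effector-like cells fewer (150 against 265). Pmaip1 was not lower in treated naive-like (24.1 and 21.2 CPM), CD8 effector-like (110.4 and 105 CPM) or regulatory T-like cells (106 and 103 CPM). T cells outside these classes held 28 treated and 17 PBS UMIs of Pmaip1, out of 691567 and 325797 UMIs of all genes. Relative to those totals its level there was lower in the treated cells. Bcl2a1b was higher in treated CD8 effector-like cells (644 and 614 CPM). It was lower in regulatory T-like (515 and 711 CPM) and naive-like cells (107.6 and 134 CPM). Relative to the same totals it was also lower in T cells outside these classes (318 and 170 UMIs). The part of the mix of T sub-clusters in the pooled values was not tested.

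Markers of other states moved with these CD8 differences. Summed over the marker lists, naive or central memory markers stood at 1012 treated and 584 PBS CPM in the CD8 effector-like class, with 8 of 8 higher. CD8 effector markers stood at 5287 and 7562 CPM, with 1 of 8 higher, and cell cycle genes at 2941 and 2382 CPM, with 11 of 12 higher. Regulatory T markers stood at 1481 and 951 CPM, with 6 of 8 higher and Tnfrsf18 at 0. Their part in the lower Bcl2, Bax and Bcl2l11 levels was not tested.

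In naive-like T cells Bcl2 was lower and Bcl2l11, the gene of BIM, was higher. Bcl2 had 284 treated and 123 PBS UMIs, or 189.9 and 290.04 CPM, a log2 ratio of -0.61 (-0.92 to -0.29). Bcl2l11 had 154 and 24 UMIs, or 103 and 56.6 CPM, a log2 ratio of 0.86 (0.24 to 1.55). Thus 1 of 6 measured members was called higher, where 9.05% of 4528 genes were, and 1 lower, where 5.57% were, and the members' median was 0.28 against 0.02 for all genes.

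The Bcl2l11 value depended on few PBS molecules. At 1000 UMIs per cell, 8.88% of 777 treated and 2.56% of 195 PBS naive-like cells had a Bcl2l11 UMI, at unthinned shares of 11.3% and 8.11% and median depths of 1474 and 1828 UMIs. The thinned share in Ptprc-low cells was 1.76% and 2.396%, close to the PBS naive-like share. With the libraries clustered apart the log2 ratio was 0.24, and with the stricter cell filter of 500 genes and 10% mitochondrial UMIs it was 0.33, both under 1.5-fold. For Bcl2 in the same cells the alternatives with a value ran from -0.56 to -0.94, and the call was lost at -0.56, with every cell weighted equally. Cell cycle markers stood at 195 treated and 295 PBS CPM in this class, and their part was not tested.

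Among the 8 compared classes Bcl2l11 levels were highest in NK-like cells, at 220.2 and 285 CPM, followed by monocyte-like cells at 177 and 173 CPM. Macrophage-like cells held 126 and 130.3 CPM and Ptprc-low cells 19.2 and 19.7 CPM. The few plasma-like cells, 34 treated and 10 PBS, held 372 and 238 CPM of Bcl2l11 from 60 and 15 UMIs, and 0 UMIs of Bcl2 in both libraries. B-like cells held 71.5 and 84.8 CPM of Bcl2l11.

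Upstream sequence of the pair of BH3-only genes with a forkhead motif is shown because FOXO factors are known activators of both Bcl2l11 and Bbc3. The sequences are RefSeq windows on GRCm38.p6 of 250 bases before an annotated start. Capitals mark GTAAACA or its reverse complement. Only the windows with a match are shown, window 1 of Bcl2l11 and window 2 of Bbc3. Window 2 of Bcl2l11 and windows 1 and 3 of Bbc3 held no match. The Bcl2l11 window lies at chr2:128125788-128126037 on the plus strand, just before the gene (chr2:128126038-128162547). The Bbc3 window lies at chr7:16310011-16310260 on the plus strand, inside the gene (chr7:16308393-16318205), before an internal start.

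Bcl2l11 upstream: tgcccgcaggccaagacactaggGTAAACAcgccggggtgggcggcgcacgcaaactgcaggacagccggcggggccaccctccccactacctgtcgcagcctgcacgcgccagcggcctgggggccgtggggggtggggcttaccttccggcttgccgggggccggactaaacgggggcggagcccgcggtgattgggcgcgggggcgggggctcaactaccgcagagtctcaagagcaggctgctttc

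Bbc3 upstream: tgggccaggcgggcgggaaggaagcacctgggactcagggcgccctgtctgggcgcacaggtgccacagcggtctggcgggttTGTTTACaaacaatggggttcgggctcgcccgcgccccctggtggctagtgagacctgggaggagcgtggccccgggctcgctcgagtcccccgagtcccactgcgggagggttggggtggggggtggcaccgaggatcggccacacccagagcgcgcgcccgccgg

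GTAAACA stood in 3.17% of the 32851 promoter windows of 250 bases in the RefSeq table. RefSeq windows matched 9 of the 10 members. Both strands were searched for TGANTCA (AP-1), TGACGTCA (cAMP element), GTAAACA (FOXO), GGAAANTCC, GAGGAAGT and AGGAAG, the last contained in GAGGAAGT, and by name for a 10-base NF-kB motif and a 10-base p53 motif. The motifs were chosen after the sequences had been seen. A match is a description of letters, and no match says only that those letters are not in the window. NF-kB matches stood in a Bbc3 and a Bcl2l1 window (7.25% of all windows), the p53 motif in the Bax window (7.13%), and none of the 8 motifs in the Mcl1 window.

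Bcl2l1 sat highest in regulatory T-like cells, at 119.8 treated (78.9 to 174) and 268 PBS CPM (199.99 to 351). CD8 effector-like cells (97.9 and 77.5 CPM) and macrophage-like cells (54.9 and 82.3 CPM) followed, and B-like cells were lowest at 5.20 and 1.73 CPM, from 8 UMIs and 1 UMI. In regulatory T-like cells the 27 treated and 52 PBS UMIs gave a log2 ratio of -1.16 (-1.89 to -0.46). It was the lone member of 3 measured called lower, where 7.82% of 1650 genes were, and 0 were called higher, where 8.91% were. The members' median was -0.47 and that of all genes 0.00.

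At 1000 UMIs per cell, 9.91% of 111 treated (5.05 to 17.0%) and 22.7% of 75 PBS regulatory T-like cells (13.8 to 33.8%) had a Bcl2l1 UMI, so the intervals overlapped. Unthinned shares were 13.8% and 34.5% at median depths of 1695 and 1930.5 UMIs. B-like cells had a Bcl2l1 UMI in 0.642% of thinned treated cells and in 0 of 304 PBS cells, at medians of 1155 and 1483 UMIs. In regulatory T-like cells Bcl2a1b stood at 515 and 711 CPM and Mcl1 at 182 and 211 CPM, both within 1.5-fold. The regulatory T markers summed to 6313 and 7101 CPM in this class and cell cycle genes to 124 and 227 CPM. Naive or central memory markers summed to 1943 and 1370 CPM (7 of 8 higher in the treated library) and CD8 effector markers to 2445 and 3435 CPM (1 of 8 higher). Their part in the Bcl2l1 difference was not tested.

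Monocyte-like cells also held less Bcl2l1, with 53 treated and 72 PBS UMIs, 31.5 and 58.4 CPM, a log2 ratio of -0.89 (-1.43 to -0.36). It was the 1 of 7 measured members called lower, where 7.29% of 5916 genes were, and 0 were called higher, where 5.43% were, with medians of 0.00 for the members and -0.03 for all genes. With every cell weighted equally the log2 ratio was -0.50, under 1.5-fold. Neutrophil markers summed to 839.7 treated and 258 PBS CPM in this class and macrophage markers to 4196 and 5753 CPM. Their part was not tested.

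In macrophage-like cells Mcl1 and Bcl2l1 did not quite reach the 1.5-fold call, in opposite directions. Mcl1 had 7352 treated and 3258 PBS UMIs, or 718 and 480.3 CPM, a log2 ratio of 0.58 (0.52 to 0.64). Bcl2l1 had 562 and 558 UMIs, or 54.9 and 82.3 CPM, a log2 ratio of -0.58 (-0.75 to -0.41). By the rule, 0 of 8 measured members were called higher in this class, where 3.73% of 10068 genes were, and 0 lower, where 6.43% were, and the medians were -0.02 for the members and 0.00 for all genes.

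More macrophage-like cells carried an Mcl1 molecule at equal depth in the treated library. At 1000 UMIs per cell, 49.9% of 1149 treated (46.9 to 52.8%) and 33.3% of 823 PBS cells (30.1 to 36.6%) had one. Without thinning the shares were 92.1% and 80.6%. Mcl1 is expressed widely and no class should lack it. The lowest thinned share, in Ptprc-low cells, was 7.89% treated and 6.36% PBS, at median unthinned depths of 29429 and 33061 UMIs. The log2 ratio of Mcl1 in macrophage-like cells ran from 0.52 at clustering resolution 0.5 to 1.03 with the libraries clustered apart, and it was 0.75 with the stricter filter. The macrophage markers summed to 15033 and 18672 CPM in this class and cell cycle genes to 1399 and 1063 CPM. Their part was not tested.

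Mcl1 was highest in monocyte-like cells, at 974 treated (928 to 1022) and 790.3 PBS CPM (741 to 842), followed by macrophage-like cells, and these intervals lay apart in both libraries. The lymphoid classes lay between 146 and 195 CPM in the treated library and between 102.3 and 211 CPM in the PBS library, with overlapping intervals among neighbours. Ptprc-low cells were lowest at 73.1 and 62.7 CPM, a log2 ratio of 0.22 (0.17 to 0.27). The 4 clusters of the Ptprc-low class each had a higher treated level, with log2 ratios of 0.19, 0.32, 0.20 and 0.15. In NK-like cells Mcl1 was called higher from 35 treated and 28 PBS UMIs (157 and 102.3 CPM), but its log2 ratio of 0.62 (-0.14 to 1.39) had an interval that held 0 and was -0.05 with doublets left in. It was the 1 of 5 measured members called there, where 8.96% of 1741 genes were higher and 9.3% lower. In this class T markers summed to 2516 treated and 1831 PBS CPM (9 of 12 higher), CD8 effector markers to 11646 and 7587 CPM (4 of 8 higher) and cell cycle genes to 373 and 760.2 CPM (2 of 12 higher), and their part was not tested.

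**Figure D5:**
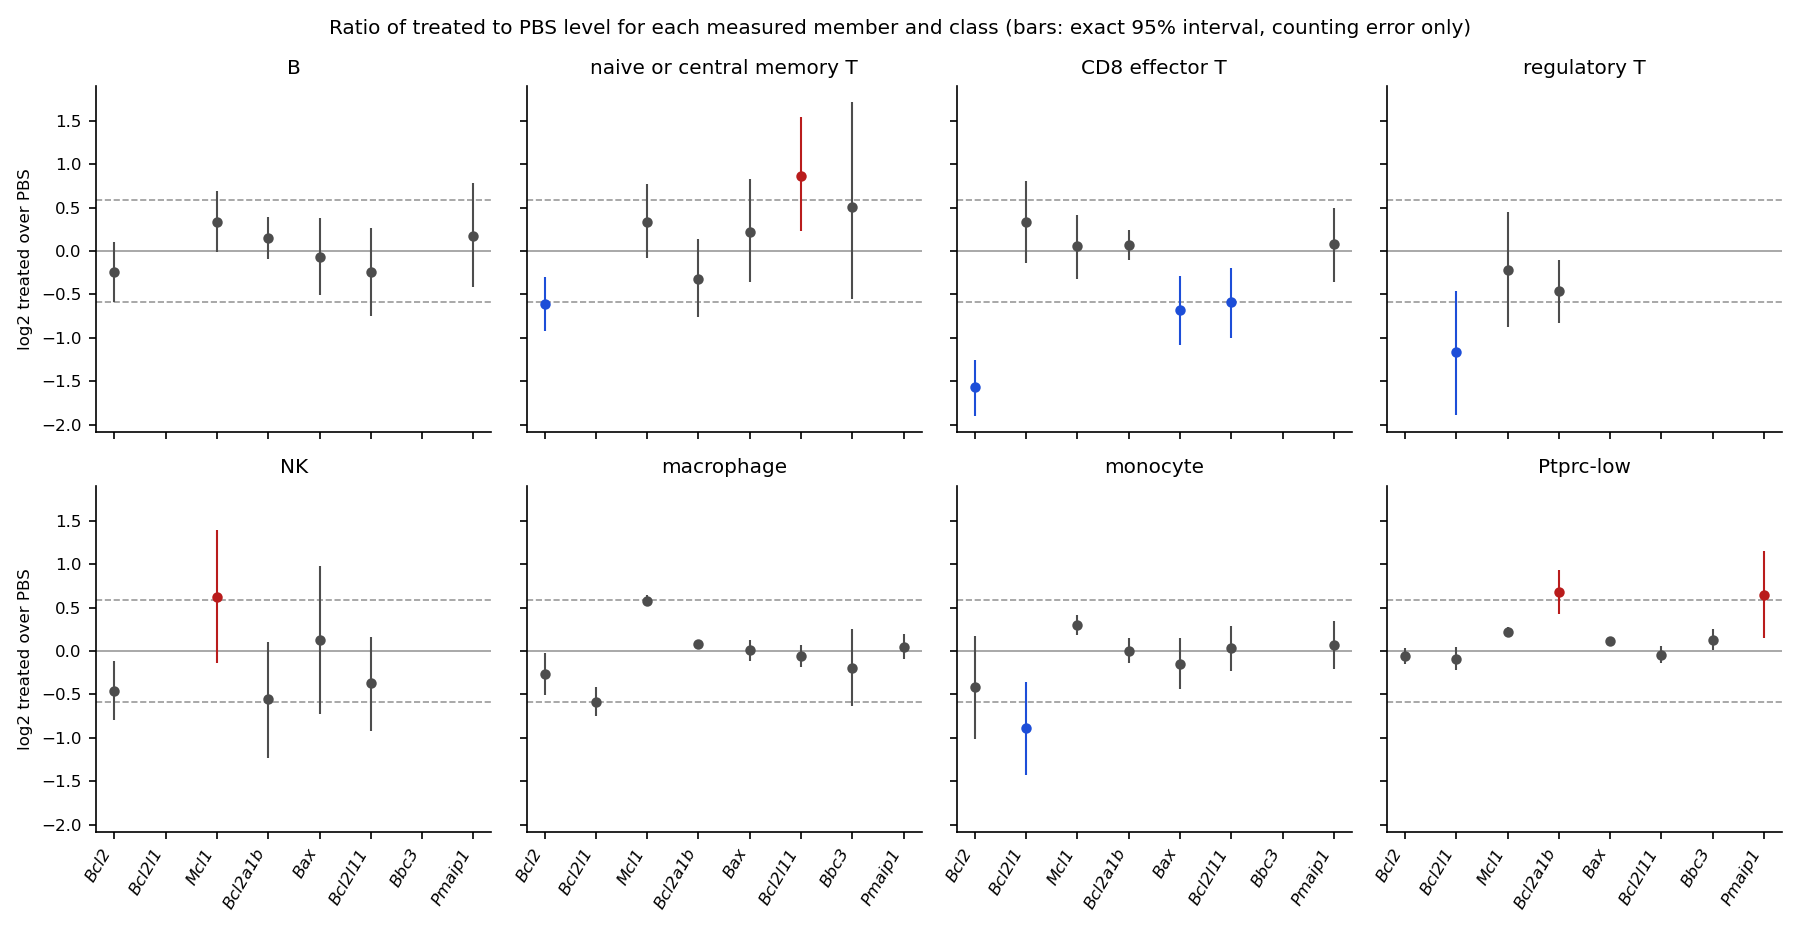
Each panel gives 1 class, with the log2 ratio of treated to PBS for each measured member and bars for the exact 95% interval, which covers counting error only. Bcl2 in CD8 effector-like T cells (-1.57) is the farthest from 0, and Mcl1 in macrophage-like cells stands at 0.58.

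Bcl2a1b was the most unevenly spread of the survival genes. Macrophage-like cells held 1237 treated and 1172 PBS CPM, CD8 effector-like T cells 644 and 614, monocyte-like cells 550.1 and 549, regulatory T-like cells 515 and 711, and B-like cells 370.4 and 334 CPM. NK-like cells held 139 and 205 CPM, and Ptprc-low cells 3.70 and 2.31 CPM. In macrophage-like cells the log2 ratio was 0.08 (0.04 to 0.12), small beside the whole-tumour value of 0.86.

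In Ptprc-low cells Bcl2a1b and Pmaip1 were called higher from low levels. Bcl2a1b had 292 treated and 240 PBS UMIs, a log2 ratio of 0.68 (0.43 to 0.93), and Pmaip1 75 and 63 UMIs, or 0.950 and 0.607 CPM, a log2 ratio of 0.65 (0.14 to 1.15). They were 2 of 8 measured members, where 4.37% of 14203 genes were higher, and 0 were lower, where 5.01% were, with medians of 0.12 for the members and 0.00 for all genes. Treated macrophage-like cells held 1237 CPM of Bcl2a1b and 100.2 CPM of Pmaip1.

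Leukocyte markers moved the same way in the Ptprc-low class. Macrophage markers summed to 74.5 treated and 56.2 PBS CPM (11 of 11 higher), T markers to 15.9 and 8.97 CPM (12 of 12 higher), and Ptprc itself stood at 14.9 and 6.14 CPM. The share of Ptprc-low cells with a Bcl2a1b UMI was 9.54% and 7.15%, and 0.195% and 0.166% at 1000 UMIs per cell, a level at which the libraries' intervals overlap. The thinned shares lie near the level of 1 UMI, so no change in expression is read from them, and the part of leukocyte RNA in both calls was not tested. With every cell weighted equally the log2 ratio of Pmaip1 was -0.17, and with doublets left in that of Bcl2a1b was 0.58, just under the call.

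Bcl2a1d and Bak1 had 0 UMIs in both libraries, and both lie wholly inside another listed gene. The floor of 3 counts over the kept cells corresponds to 0.0292 treated and 0.0237 PBS CPM. Bcl2a1d (chr9:88723285-88731914, minus strand, GRCm38) lies inside Gm10634, which had 282 treated and 297 PBS UMIs on the plus strand. Bak1 (chr17:27019810-27029009, minus strand), the gene of the effector BAK, lies inside Ggnbp1, which had 67 and 84 UMIs. Of the protein-coding genes nested whole in a second listed gene, 944 of 949 stood at 0, against 2174 of 14634 without overlap, so their 0 values are not read as lack of expression. The antisense gene D630008O14Rik overlaps Bcl2 (chr1:106538178-106714274) in part and stood at 0 UMIs.

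The mouse A1 genes Bcl2a1a, Bcl2a1b and Bcl2a1d share long stretches of sequence, so a UMI cannot always be assigned to one of them. Of the 251 windows of 50 bases in the last 300 bases of the Bcl2a1b transcript, 186 (74.1%) occur in Bcl2a1d and 110 (43.8%) in Bcl2a1a. Bcl2a1a had 3644 treated and 2767 PBS UMIs, 35.5 and 21.8 CPM, a log2 ratio of 0.70, and Bcl2a1c, which shares none of those 251 windows, had 23 and 7 UMIs. How UMIs were split between copies was not tested, and the Bcl2a1b values are uncertain to that extent.

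The block of sequence before the Bcl2a1b and Bcl2a1d starts is shown because it shows how alike the copies are. The Bcl2a1b block lies at chr9:89199023-89199164 on the plus strand and the Bcl2a1d block at chr9:88731915-88732050 on the minus strand, both from RefSeq on GRCm38.p6 and written 5′ to 3′. Capitals mark the bases that differ, a single mismatch and a 6-base stretch present in Bcl2a1b alone.

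Bcl2a1b upstream: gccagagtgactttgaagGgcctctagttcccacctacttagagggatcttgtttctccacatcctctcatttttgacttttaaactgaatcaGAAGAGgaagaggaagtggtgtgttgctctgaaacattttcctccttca

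Bcl2a1d upstream: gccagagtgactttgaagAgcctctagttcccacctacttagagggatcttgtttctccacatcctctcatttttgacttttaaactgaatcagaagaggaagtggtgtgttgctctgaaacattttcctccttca

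The blocks share 135 bases. Both hold TGANTCA (AP-1), found in 6.75% of all promoter windows, and GAGGAAGT, found in 2.44%, as letter matches in the window.

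Bax, the effector whose product opens the outer mitochondrial membrane, was the most even member. Its level lay between 82.0 and 134 CPM in the 8 treated classes and between 73.1 and 171 CPM in the PBS classes, and among treated classes each neighbour's interval overlapped the next. The PBS CD8 effector-like T cells held the highest level, 171 CPM. Macrophage-like cells held 134 and 133 CPM, a log2 ratio of 0.01 (-0.12 to 0.13), and Ptprc-low cells 82.0 and 75.7 CPM, a log2 ratio of 0.11 (0.07 to 0.16).

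Bbc3 ran from 4.49 to 30.1 CPM across the 8 treated classes and from 5.19 to 21.2 CPM across the PBS classes. Ptprc-low cells supplied most of its UMIs, 1017 treated and 1223 PBS, at 12.9 and 11.8 CPM, a log2 ratio of 0.13 (0.01 to 0.25). Macrophage-like cells held 103 and 78 UMIs, at 10.1 and 11.5 CPM. Naive-like T cells had the highest treated level, 30.1 CPM, from 45 UMIs, but 9 PBS UMIs gave 21.2 CPM.

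Pmaip1 UMIs came mainly from leukocyte-like cells in these libraries, with 3.60% and 3.96% of them in Ptprc-low cells. The few fibroblast-like cells held 9 and 10 UMIs and the few endothelial-like cells 6 and 5. Relative to their class totals, these levels were above those of NK-like cells. An unnamed cluster led by Ccl17 and Il12b, which met 10 of 11 conventional dendritic markers, stood highest at 331 treated and 383 PBS CPM and supplied 17.1% and 21.1% of its UMIs. Monocyte-like cells held 161 and 153 CPM, CD8 effector-like T cells 110.4 and 105, regulatory T-like cells 106 and 103, and macrophage-like cells 100.2 and 96.8 CPM. NK-like cells held 8.99 and 10.96 CPM, from 2 and 3 UMIs. In macrophage-like cells the log2 ratio was 0.05 (-0.09 to 0.19), and 0.59 with the libraries clustered apart.

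The B-like class showed no called member: 0 of 6 measured members were higher, where 7.49% of 5103 genes were, and 0 lower, where 4.33% were. Its members' median log2 ratio was 0.04, beside 0.03 for all genes. Bcl2 stood at 152 treated and 180.04 PBS CPM, Mcl1 at 195 and 154 CPM and Bcl2a1b at 370.4 and 334 CPM, and the interval of the ratio held 0 for all 3.

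The profiles of other genes over the 16 class-by-library levels were compared with each member, over 5607 genes, as a description, since the points share libraries and depth. Bcl2 was most like Mctp2 (Pearson r = 0.955), Pim2 (0.917) and St3gal6 (0.888), and Bcl2l11 like Lamtor2 (0.871). Mcl1 was most like Pip5k1c (0.964), Sat1 (0.957) and Ctss (0.955). Bcl2a1b was most like Lpxn (0.958) and Hcls1 (0.954), Pmaip1 like Tmem179b (0.916) and Ifi27l2a (0.915), and Bcl2l1 like Ubash3b (0.948). Bax was most like Os9 (0.873) and Bbc3 like Tdrp (0.725). Among the members themselves Bcl2a1b and Pmaip1 were alike at 0.903, and Bcl2 and Bcl2l11 at 0.529.

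The other genes of the pathway were read as lists over the whole tumour, where 8.5% of all genes were called higher and 4.89% lower. Of 15 measured survival-cytokine genes 6 were called higher and 0 lower, with a median log2 ratio of 0.43. Il7r, the receptor that maintains naive T cells, stood at 33.0 treated and 11.6 PBS CPM, a log2 ratio of 1.51. Csf2rb, the shared chain of the GM-CSF receptor, stood at 24.4 and 10.4 CPM, and Csf1r, the macrophage growth factor receptor, at 46.8 and 23.5 CPM. Tnfrsf13c, the BAFF receptor, stood at 1.97 and 0.813 CPM. Il7r and Csf1r were also among the markers of naive-like T and macrophage-like cells. In naive-like T cells 0 of 10 measured genes of this list were higher (9.05% of all genes) and 1 lower (5.57%). In B-like cells 1 of 8 was higher (7.49%) and 0 lower (4.33%), and in Ptprc-low cells 3 of 14 higher (4.37%) and 0 lower (5.01%). Csf1r was among the 3, at 2.65 treated and 1.08 PBS CPM, where Ptprc itself stood at 14.9 and 6.14 CPM. The part of leukocyte RNA in the Ptprc-low values was not tested. The part of the mix of classes in the whole-tumour values was not tested.

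NF-kB, a known inducer of A1, and immediate early genes, a set that tissue dissociation is known to induce, had lists of their own. Of 10 NF-kB genes 3 were called higher and 0 lower, with a median of 0.26: Tnfaip3 stood at 107.7 and 52.4 CPM, Rel at 187 and 101 CPM, and Nfkb1 at 235 and 152 CPM. Of 12 immediate early genes 3 were called higher and 0 lower, with a median of 0.28, and Dusp1, a stress-induced phosphatase, stood at 328 and 175 CPM. The list was mixed: Egr1 stood lower at 190.3 treated and 279.9 PBS CPM, a log2 ratio of -0.56. Ier2 (-0.25), Jun (-0.18) and Jund (-0.15) were also lower, all within 1.5-fold. How far handling of the tissue moved with the libraries was not tested. Within macrophage-like cells, where 3.73% of genes were higher and 6.43% lower, the survival-cytokine list held 1 higher and 0 lower of 13 measured genes at a median of 0.00. There the NF-kB list held 0 of 10 called genes at a median of 0.07, and the immediate early list 0 higher and 2 lower of 12, Egr1 at -0.85 and Jun at -0.69. In CD8 effector-like cells, where 7.11% of genes were higher and 8.46% lower, the survival-cytokine list had 4 of 9 measured genes higher, Il7r, Il6st, Stat5b and Pim1, and 1 lower, Pim2, a survival kinase gene, with Il7r at 200.5 and 101 CPM. There the NF-kB list had 3 of 8 higher, Nfkbia, Nfkb1 and Rel, and the stress and FOXO list 0 of 4.

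The remaining lists held few called genes. Of 17 measured genes in the list of the apoptosome, caspases and their inhibitors, none was called, with a median of 0.08. None was called among 9 stress and FOXO genes (median -0.01) and 8 genes of MCL1 and BIM turnover (0.12), at the levels measured. Diablo, Hif1a, Txnip and Fbxw7 of these 3 lists stood at 0 UMIs in both libraries, so the counts say nothing of them. Of 14 measured p53 targets 1 was called higher, Mdm2, the regulator of p53, at 81.6 and 53.7 CPM, and the list's median was 0.10. Of 14 death receptor genes 1 was called higher, Ripk3, a necroptosis kinase, at 3.13 and 2.01 CPM, with a median of 0.04. Of 11 other family genes 1 was higher, Bcl2a1a, and 1 lower, Bcl2l15, at 0.263 and 0.481 CPM, and Bad, a BH3-only gene, stood at 35.0 and 41.4 CPM.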

How the data were processed

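The authors deposited raw UMI counts for each barcode, without normalization, from 3' libraries made with a MobiCube kit and sequenced on a NovaSeq instrument, per the labels' protocols. STAR and mm10 were used per the submitters' processing notes. For versions, counter and annotation, nothing is given in the sources used here. Kept barcodes had at least 200 genes and at most 20% mitochondrial UMIs, and Scrublet (scanpy 1.11.5) removed the highest scores at 0.8% per 1000 barcodes, 694 treated and 569 PBS. Counts were scaled to 10000 per cell, and 2000 variable genes, 30 components and 15 neighbours fed Leiden clustering at resolution 1.0 over both libraries, without the family's genes. A cluster was named when over 50% of a type's markers, and at least 3, were met. No name was given where another type had the larger number of markers in the 10 leading genes, as in the cluster led by Ccl17 and Il12b, or where UMIs were few and the type's own markers did not lead. Unnamed clusters under 100 CPM of Ptprc with a median of at least 10000 UMIs formed the Ptprc-low class.

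UMIs were summed per class and library. Intervals are exact Poisson, Clopper-Pearson or conditional binomial (scipy 1.17.1). The ratio interval and the 1.5-fold call were tried on simulated Poisson counts, which held no variation between cells or between libraries. The members, lists and classes were chosen with earlier results of these data known. All members are named, with genes most like each member. List genes were drawn from the 4 measured genes of each list with the largest absolute whole-tumour ratio. Not all of these are named, and those named are not always the largest. Other genes were named after their values were seen. Positions come from the GRCm38 annotation GENCODE M21, which held 32158 of the 32285 gene identifiers, and upstream sequences are RefSeq's on GRCm38.p6. Alternatives changed the cell filter, doublets, clustering, cell and class weights, depth, totals and the UMI minimum.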

Additional observations from a re-analysis of the deposited data

Results flagged for a closer look

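Bcl2l11, the gene of BIM, was called on opposite sides in a pair of T classes. The log2 ratio of treated to PBS was 0.86 in naive- or central-memory-like T cells and -0.59 in CD8 effector-like T cells, and with 1 library per group the difference between them was not tested. The naive-like value rested on 24 PBS UMIs, and the CD8 value on the cycling sub-cluster, without which Bcl2l11 was not called. The naive-like value was 0.24 with the libraries clustered apart, under 1.5-fold.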

How the results depend on the processing

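No paired analysis was possible because each group is 1 library. The alternatives without shared barcodes, without the cycling CD8 sub-cluster and with the PBS cluster shares inside the Ptprc-low class were chosen after seeing the data. The count of members called higher over the whole tumour went from 3 to 1 with equal cell weight, 1 with thinning to 1000 UMIs, 0 with equal class weight and 0 with the PBS share of cells in each cluster, and the count called lower went from 0 to 1 with equal class weight. The count of pairs of a member and a class called higher went from 4 to 1 at a minimum of 200 UMIs. The equal class weight covers the 8 compared classes alone. The sign turned for Bcl2a1b with that weight (-0.061), for Mcl1 in NK-like cells with doublets left in (-0.051) and for Pmaip1 in Ptprc-low cells with equal cell weight (-0.17). Of the 13 calls, 6 remained of 13 with equal cell weight, 6 of 8 with a value after thinning, 9 of 12 with the stricter filter, 9 of 12 with doublets left in, 8 of 8 at resolution 0.5 and 7 of 8 with the libraries clustered apart. Totals without mitochondrial and ribosomal genes, and centring on the median of all genes, kept 13 of 13. Bcl2 in CD8 effector-like T cells ran from -1.57 to -1.83 over the alternatives with a value; at resolution 0.5 and with the libraries clustered apart the class had none. Few cells and low UMI totals limited the regulatory T-like (123 treated and 84 PBS cells) and NK-like (101 and 92) classes, where 3 and 5 members were measured.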

Other observations

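Clusters outside the compared classes held a few larger differences, given as values with no background share. In the cluster led by Ccl17 and Il12b, 184 treated and 135 PBS cells, Bcl2l1 had 59 and 16 UMIs, or 54.7 and 18.2 CPM, a log2 ratio of 1.59 (0.77 to 2.48), the opposite direction to monocyte-like and regulatory T-like cells; that difference was not tested. In this cluster T markers summed to 79.7 and 13.7 CPM (12 of 12 higher), B markers to 234 and 71.7 CPM (9 of 12 higher) and fibroblast markers to 535 and 142 CPM (9 of 11 higher), and their part was not tested. Mcl1 in the same cluster stood at 415 and 420.2 CPM and Bcl2a1b at 899 and 689 CPM. Fibroblast-like cells, 34 and 27, held 75 and 21 UMIs of Mcl1, or 245 and 101 CPM, a log2 ratio of 1.28 (0.57 to 2.05), while their fibroblast markers summed to 44573 and 25118 CPM. Endothelial-like cells, 53 and 23, held 67 and 24 UMIs of Bax, or 222 and 125 CPM, a log2 ratio of 0.83 (0.14 to 1.57).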
